A study of Mus musculus with 8 samples.

Results

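Irx1, Irx2, Pou3f4, Etv1, Foxp1 and Foxp2 are 6 genes for transcription factors of pancreatic alpha cells, the islet cells that make glucagon. They were matched by symbol in the deposited count table and make up 6 of its 55536 genes. Poly(A) RNA had been sequenced from alphaTC6 cells, a mouse alpha cell line labelled as wild type, 48 h after reverse transfection with a lipid reagent. There were 4 libraries from cells given scramble siRNA (the control) and 4 from cells given siRNA against Klf4, a zinc finger transcription factor. Batch 1 held scramble replicates 1 and 2 and Klf4 siRNA replicates 1, 2 and 4, and batch 2 held scramble replicates 3 and 4 and Klf4 siRNA replicate 3, per the labels. The labels do not say what separated the batches. All libraries come from a single tumour-derived line without the other cells of an islet, and the labels' extraction text names isolated islets, whereas each sample is labelled as the cell line.

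Irx1 and Irx2 encode Iroquois homeodomain proteins that are made in glucagon cells of the developing and adult pancreas. Pou3f4, also called Brn4, is a POU homeodomain factor that binds and activates the glucagon gene promoter. Etv1 belongs to the PEA3 group of ETS factors, which act downstream of growth factor signalling. Foxp1 and Foxp2 are forkhead proteins that bind DNA as dimers with each other or with Foxp4, and in mice the FOXP factors are needed for the growth of the alpha cell population after birth. The question put to these genes was whether their RNA changed when Klf4 RNA was reduced, and whether it differed between batches.

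Libraries held 45954151 to 64185987 counts. The unit of level is CPM, a gene's count over its library's TMM-scaled total, per 1000000, and 16333 genes had enough counts to be tested. Klf4 RNA, the target, ranged from 35.1 to 46.8 CPM in scramble and from 11.5 to 19.8 CPM in Klf4 siRNA libraries, with a log2 fold change of -1.33 (SE 0.17, edgeR adjusted p = 0.0083). Its adjusted p was 0.104 in batch 1 alone and 0.0524 without scramble replicate 1. The alpha cell markers reported here summed to 6080 to 14300 CPM, and 3 of the 7 tested passed the threshold for Klf4 siRNA (2 lower, 1 higher). Gc, the alpha cell marker left untested, had 0 to 4 counts per library. Gcg, the glucagon gene, was one of the lower markers (-0.18 on the log2 scale, SE 0.041, edgeR adjusted p = 0.00954), and its level was 6.97-fold higher in batch 2. The Gcg change had an adjusted p of 0.0523 and 0.0931 without scramble replicate 1 and Klf4 siRNA replicate 3, 0.143 in batch 1 alone, and 0.756 at a log2 fold change of -0.879 when the batch term was dropped. Of 9 beta cell markers, Ins1, Ins2, Pdx1 and Ucn3 had 0 counts in every library. Nkx6-1, G6pc2 and, at a mean of 3.17 CPM, Mafa had enough counts to be tested. Of the 3 beta cell markers tested, 1 passed for Klf4 siRNA, Nkx6-1, a beta cell homeodomain factor, which was lower (-0.12 on the log2 scale, SE 0.037, edgeR adjusted p = 0.0444). It missed the threshold in 7 of the 8 fits with a library removed, all but that without Klf4 siRNA replicate 4 (adjusted p of up to 0.186), and also when the batch term was dropped (-0.202, adjusted p = 0.473), in batch 1 alone (0.233) and with limma-voom (0.0639). Markers of delta, PP and epsilon cells summed to at most 0.452 CPM and of acinar cells to 7.39 CPM. Those of duct cells summed to at most 13.9 CPM and of mesenchymal, endothelial and immune cells to 22.4 CPM. In Klf4 siRNA replicate 4, Cela1 alone had 7.30 CPM of the acinar sum. There Col1a2 alone had 21.7 CPM of the mesenchymal, endothelial and immune sum. The part of these marker levels in the results below was not tested.

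All 6 factors were expressed, at levels that differed widely per length of RNA. In scramble libraries, the level per kilobase of exon was 78.4 ± 4.26 CPM for Pou3f4, 76.7 ± 2.04 CPM for Irx2 and 75.6 ± 4.61 CPM for Irx1 (SD, n = 4 each). These 3 means differed by less than their spread, which includes a batch difference, as Irx1 was higher and Pou3f4 lower in batch 2. Their order within a batch is not read from them. Etv1 followed at 57.3 ± 2.38, Foxp1 at 13.7 ± 0.750 and Foxp2 at 0.843 ± 0.0900 CPM per kilobase (SD, n = 4 each), and each of these steps exceeded the spread. The length used is that of all annotated exons of a gene, which is long for Etv1 (13.3 kb), Foxp1 (13.75 kb) and Foxp2 (16.35 kb) and short for Irx1 (2.62 kb), Irx2 (3.28 kb) and Pou3f4 (2.93 kb). With the longest transcript as the length, Etv1 came first at 115.8 CPM per kilobase, ahead of Irx2 (96.0 ± 2.55), Irx1 (83.5 ± 5.09) and Pou3f4 (78.4 ± 4.26), and Foxp1 (26.3) and Foxp2 (2.04) kept the last 2 places. The order of the first 4 thus depended on the length chosen, and that of Foxp1 and Foxp2 did not under these 2 lengths.

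The families of these factors were unevenly represented in the line. Irx1 (chromosome 13, positions 71957921 to 71963723 of GRCm38, minus strand) and Irx2 (chromosome 13, 72628820 to 72634198, plus strand) lie 665.1 kb apart. Irx4, the next Iroquois gene of that cluster, lies 626.3 kb beyond Irx2 and had 0 counts in all 8 libraries. This allows at most 0.0653 CPM in the smallest library (3 counts over its total before TMM scaling, counting error only). Irx3, Irx5 and Irx6, which form the other Iroquois cluster on chromosome 8, had 52 to 80, 113 to 220 and 36 to 130 counts per library, against 8850 to 13018 for Irx1 and 11667 to 15955 for Irx2.

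Pou3f4 (chromosome X, 110814280 to 110817207, plus strand, a single exon) was the sole POU3 gene with any count. Pou3f1, Pou3f2 and Pou3f3 had 0 counts in all 8 libraries, with the same upper limit. Etv1 (chromosome 12, 38779380 to 38870484, plus strand) stood above its PEA3 relatives Etv5 and Etv4, whose scramble means per kilobase were 2.21 and 0.235 CPM. Among forkhead P genes, Foxp4 lay between Foxp1 and Foxp2, at 10.1 CPM per kilobase of exon or 12.4 with the longest transcript as the length, and Foxp3, the regulatory T cell factor, had 8 to 21 counts per library. Foxp1 (chromosome 6, 98925338 to 99522721, minus strand) and Foxp2 (chromosome 6, 14901349 to 15441977, plus strand) are both long genes with most of their span in introns.

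**Figure D1:**
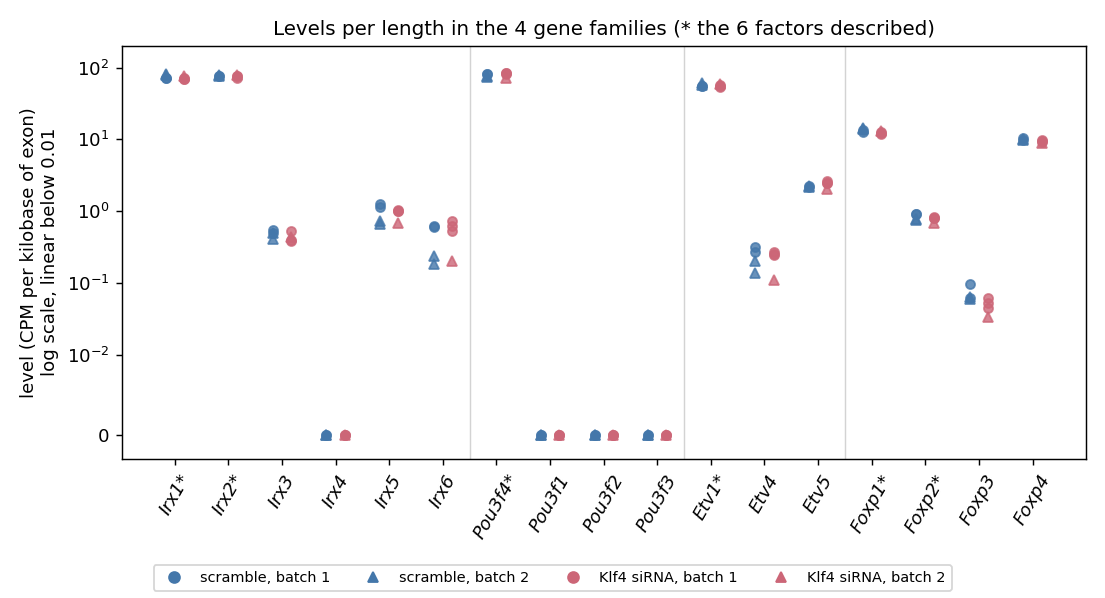
Levels in CPM per kilobase of exon (vertical axis, log scale that turns linear below 0.01) of all Iroquois, POU3, PEA3 and forkhead P genes, a point per library, coloured by treatment and shaped by batch. Irx1, Irx2, Pou3f4 and Etv1 sit at the top of their families, Foxp4 lies between Foxp1 and Foxp2, and Irx4, Pou3f1, Pou3f2 and Pou3f3 are at 0 in all 8 libraries.

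Of the 6 factors, Foxp1 and Foxp2 overlapped other annotated genes of the GENCODE release. Foxp2 overlapped a microRNA annotation in an intron, with 0 counts. Foxp1, with 8192 to 12456 counts, overlapped 4 annotations on its own strand that had at most 11 counts in a library, and exons of 2 of them, Gm20696 and Gm49348, overlapped its exons. How reads that fall on more than 1 gene were counted was not given in the sources used here, so Foxp1 reads lost to these overlaps cannot be counted. None of the 6 overlapped a gene on the opposite strand.

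After Klf4 siRNA, Foxp1 and Foxp2 were lower and the other 4 factors did not pass the threshold. The 2 forkhead genes stood at 92.2% and 88.5% of the control level, and the estimates for Irx1, Irx2, Pou3f4 and Etv1 lay between 97.8% and 100.3%. Thus 2 of 6 passed an adjusted p of 0.05 (edgeR quasi-likelihood test with batch as a term), both of them lower. Among all tested genes, 11.7% passed and 6.81% passed as lower. In a fit of the 10387 genes with a mean of at least 5 CPM, 2010 passed, Foxp1 and Foxp2 among them. The median log2 fold change of the 6 was -0.023, and that of all tested genes was 4.33e-05. The median size of the change, regardless of sign, was 0.023 on the log2 scale for the 6 and 0.077 for all tested genes. All tested genes include weakly counted ones with wide errors, such as Irx3 (SE 0.15), so these medians are not matched for level. A count of 2 in a list of 6 chosen with earlier results known is given as a description. In bulk RNA, fewer cells that express a gene and less RNA per cell cannot be told apart.

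Foxp1 had 186.5, 175.1, 194.4 and 198.5 CPM in scramble replicates 1 to 4. It had 166.3, 162.0, 178.6 and 175.7 CPM in Klf4 siRNA replicates 1 to 4. In batch 2 the Klf4 siRNA library lay below both controls, and in batch 1 Klf4 siRNA replicate 4 lay just above scramble replicate 2, so that the groups overlapped there. The means were 188.6 ± 10.3 and 170.6 ± 7.79 CPM (SD, n = 4 each). The log2 fold change was -0.12 (SE 0.031, 95% interval -0.18 to -0.054, edgeR adjusted p = 0.0146), with -0.11 within batch 1 and -0.14 within batch 2. Leaving out scramble replicate 1, Klf4 siRNA replicate 2 or Klf4 siRNA replicate 3 gave adjusted p-values of 0.148, 0.0502 and 0.119, at log2 fold changes of -0.096, -0.10 and -0.11. Nor did Foxp1 pass when the batch term was dropped (-0.145, adjusted p = 0.170) or in batch 1 alone (-0.11, adjusted p = 0.123).

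Foxp2, the lowest of the 6, had 15.1, 15.0, 12.4 and 12.7 CPM in scramble replicates 1 to 4. In Klf4 siRNA replicates 1 to 4 it had 13.1, 13.4, 11.1 and 13.4 CPM. Within each batch every Klf4 siRNA library lay below every control, whereas across batches the groups overlapped, because the controls of batch 2 were lower than the Klf4 siRNA libraries of batch 1. The means were 13.8 ± 1.47 and 12.7 ± 1.11 CPM (SD, n = 4 each), on 584 to 845 counts per library. The log2 fold change was -0.18 (SE 0.051, 95% interval -0.28 to -0.070, edgeR adjusted p = 0.0282), with -0.18 within batch 1 and -0.17 within batch 2. Its adjusted p rose to 0.125, 0.0982, 0.0659 and 0.114 without scramble replicate 1, scramble replicate 2, Klf4 siRNA replicate 1 and Klf4 siRNA replicate 3. The log2 fold change in those 4 fits lay between -0.18 and -0.17, but it was -0.11 without the batch term (adjusted p = 0.637), and in batch 1 alone it was -0.18 (adjusted p = 0.115).

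Foxp4, the partner of both, was also lower, with means of 49.8 ± 1.89 CPM for the controls and 46.1 ± 1.66 CPM after the knockdown (SD, n = 4 each). Its log2 fold change was -0.13 (SE 0.035, edgeR adjusted p = 0.0221). It ran from 47.6 to 52.0 CPM in scramble and from 44.1 to 48.1 CPM in Klf4 siRNA libraries, and within each batch the groups did not overlap. Its adjusted p was 0.161, 0.0516 and 0.167 without scramble replicate 1, Klf4 siRNA replicate 2 and Klf4 siRNA replicate 3, 0.225 when the batch term was dropped and 0.157 in batch 1 alone. With all libraries and the batch term, the 3 forkhead P genes above 1 CPM were thus lower by 0.12 to 0.18 on the log2 scale, and their 95% intervals overlapped one another. Foxp3 had too few counts to place beside them (log2 fold change -0.66, 95% interval -1.25 to -0.064, edgeR adjusted p = 0.158).

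**Figure D2:**
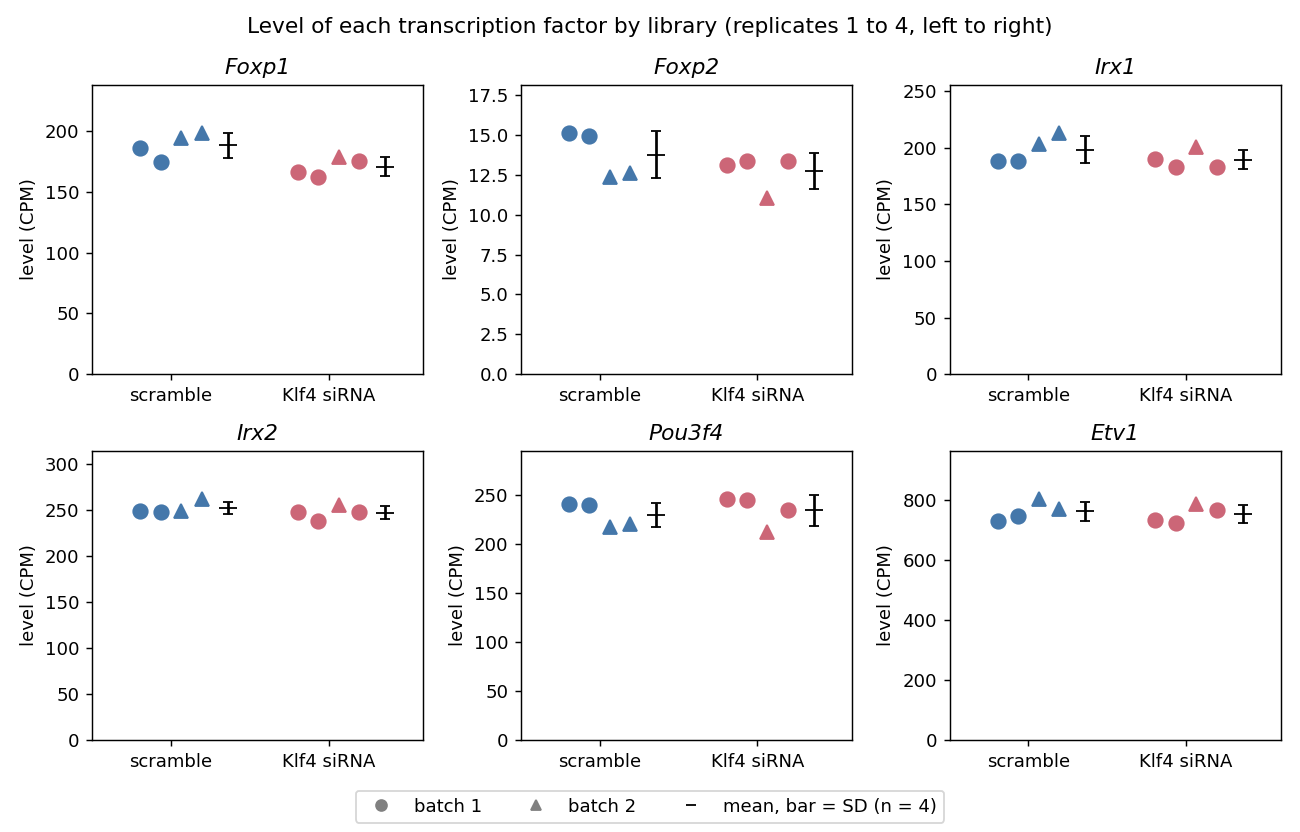
Level in CPM (vertical axis, from 0) of each of the 6 factors in scramble and Klf4 siRNA libraries, with replicates 1 to 4 from left to right, circles for batch 1, triangles for batch 2, and the mean with its SD (n = 4). Foxp1 and Foxp2 sit lower after Klf4 siRNA within each batch apart from Klf4 siRNA replicate 4 for Foxp1, and the treatment means of the other 4 factors differ by less than the SD of their scramble libraries.

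Irx1 had 188.6, 188.0, 203.2 and 213.0 CPM in scramble replicates 1 to 4 and 190.3, 183.3, 201.0 and 183.2 CPM in Klf4 siRNA replicates 1 to 4. The groups overlapped in batch 1, and the log2 fold change was -0.032 with a 95% interval from -0.088 to 0.025 (edgeR adjusted p = 0.543). Irx2 had 248.8, 247.9, 249.0 and 261.9 CPM in scramble and 247.7, 238.2, 255.6 and 247.5 CPM in Klf4 siRNA replicates 1 to 4. For Irx2 the log2 fold change was -0.014 with an interval from -0.072 to 0.044 (edgeR adjusted p = 0.827). On the linear scale these intervals run from 94.1% to 101.8% of the control level for Irx1 and from 95.1% to 103.1% for Irx2.

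Pou3f4 had 241.1, 239.6, 217.3 and 220.5 CPM in scramble replicates 1 to 4. After Klf4 siRNA it had 246.1, 245.3, 212.6 and 234.5 CPM. The Klf4 siRNA libraries of batch 1 lay on both sides of their controls, and that of batch 2 was the lowest of all 8. Its log2 fold change was -0.0089 with an interval from -0.066 to 0.048 (edgeR adjusted p = 0.899), or 95.5% to 103.4% of the control level.

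Etv1, the most counted of the 6, had 730.3, 745.2, 802.8 and 768.8 CPM in scramble and 732.4, 721.7, 787.8 and 767.7 CPM in Klf4 siRNA replicates 1 to 4. Treatments overlapped in both batches, with a log2 fold change of 0.0048 and an interval from -0.056 to 0.065 (edgeR adjusted p = 0.952). The sign of the small values for Pou3f4 and Etv1 changed with the model and with the libraries included, and no direction is read from them. The 4 intervals together ran from 94.1% to 104.6% of the control level.

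**Figure D3:**
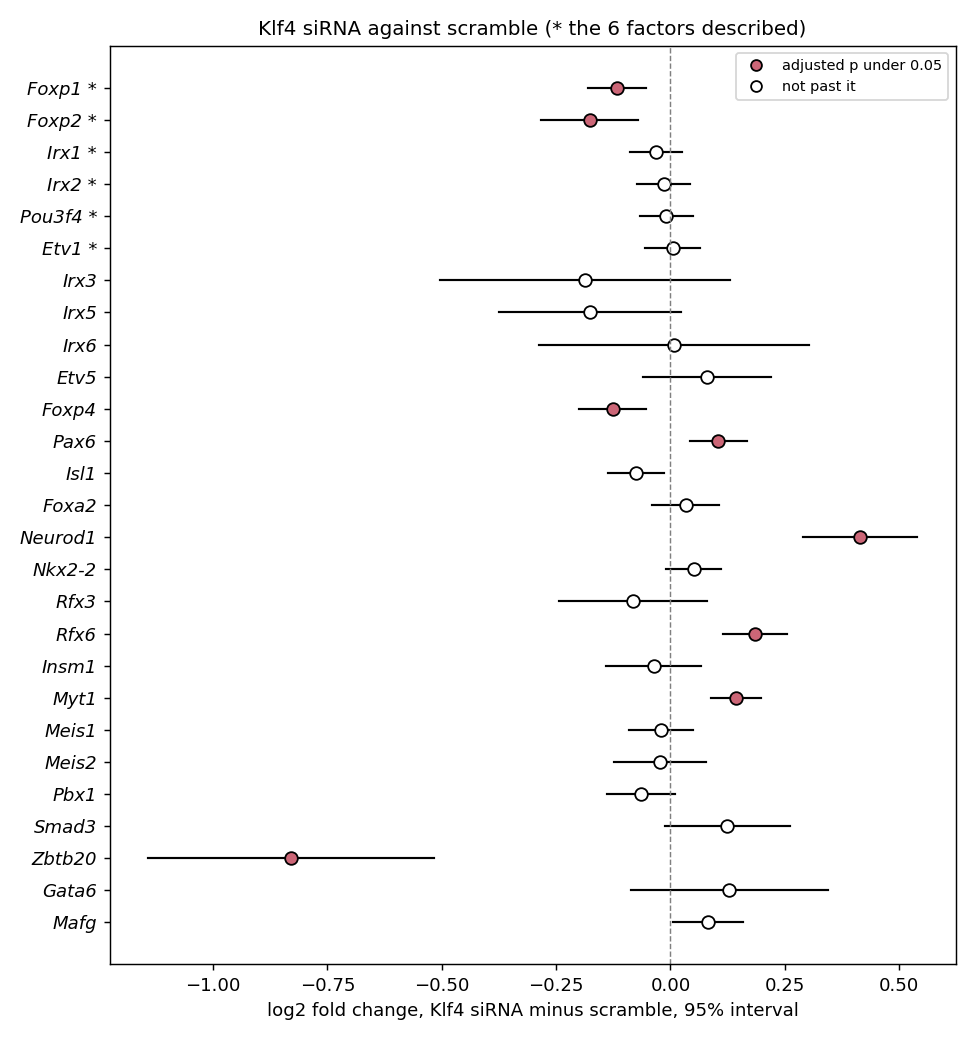
Log2 fold change of Klf4 siRNA against scramble with its 95% interval (horizontal axis) for the 6 factors (asterisks), their relatives with at least 1 CPM and other islet transcription factors, filled where the edgeR adjusted p was under 0.05. Foxp1, Foxp2 and Foxp4 lie left of 0 at -0.12 to -0.18, and the intervals of Irx1, Irx2, Pou3f4 and Etv1 cross 0.

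Other alpha cell and islet factors gave a mixed picture. Of the 18 reported here, 16 were tested, 4 were higher and 1 lower after Klf4 siRNA, and the median log2 fold change was 0.042. The lower gene was Zbtb20, a zinc finger repressor, at a log2 fold change of -0.83 (SE 0.12, edgeR adjusted p = 0.0135). It had 282.8, 276.6, 245.7 and 198.7 CPM in scramble and 147.6, 137.6, 153.5 and 135.9 CPM in Klf4 siRNA replicates 1 to 4, without overlap. Zbtb20 did not pass when either of the batch 1 controls was dropped, with adjusted p = 0.0673 for leaving out scramble replicate 1 and 0.0696 for replicate 2.

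The higher genes were Neurod1, Rfx6, Myt1 and Pax6, factors shared by several islet cell types, at log2 fold changes of 0.41, 0.18, 0.14 and 0.10 (edgeR adjusted p = 0.00114, 0.000748, 0.000846 and 0.0264). Pax6 did not pass without scramble replicate 1, scramble replicate 2, Klf4 siRNA replicate 1 or Klf4 siRNA replicate 3 (adjusted p = 0.0548, 0.180, 0.0804 and 0.119), nor in batch 1 alone (0.150) or with library size alone as the scaling (0.0547). When the batch term was dropped, Rfx6, Myt1 and Pax6 had adjusted p-values of 0.371, 0.152 and 0.217. Among the 11 relatives, 7 were tested and Foxp4 alone passed. Irx5 (-0.18, 95% interval -0.38 to 0.024), Irx3 (-0.19, -0.50 to 0.13), Irx6 (0.0085, -0.29 to 0.30) and Etv5 (0.080, -0.061 to 0.22) had wider intervals at their low counts.

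The promoter windows of Foxp1, a member that was lower after Klf4 siRNA, and of a pair of members whose interval crossed 0, Irx2 and Pou3f4, are shown for comparison. Windows of Foxp2, the other lower member, and of Irx1 were not analysed here. KLF proteins are known to bind CACCC elements, and CACCC, on either strand, is in capitals (GGGTG where it lies on the other strand). Windows are RefSeq sequences of GRCm38.p6 from 250 bases before to 50 after an annotated start, 5′ to 3′ on the gene's strand. Foxp1 has 3 annotated starts, at chr6:99520944-99521243, chr6:99266466-99266765 and chr6:99028249-99028548 (minus strand), and counts per gene do not tell which of them was used. The Irx2 window is chr13:72628570-72628869 and that of Pou3f4 is chrX:110814129-110814428 (plus strand).
Foxp1 start 1: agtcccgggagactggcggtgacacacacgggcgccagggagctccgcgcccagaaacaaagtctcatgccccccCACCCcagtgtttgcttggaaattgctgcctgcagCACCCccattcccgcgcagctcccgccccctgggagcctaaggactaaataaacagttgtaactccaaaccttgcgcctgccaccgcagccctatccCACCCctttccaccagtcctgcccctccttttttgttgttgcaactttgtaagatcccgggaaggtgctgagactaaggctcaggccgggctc
Foxp1 start 2: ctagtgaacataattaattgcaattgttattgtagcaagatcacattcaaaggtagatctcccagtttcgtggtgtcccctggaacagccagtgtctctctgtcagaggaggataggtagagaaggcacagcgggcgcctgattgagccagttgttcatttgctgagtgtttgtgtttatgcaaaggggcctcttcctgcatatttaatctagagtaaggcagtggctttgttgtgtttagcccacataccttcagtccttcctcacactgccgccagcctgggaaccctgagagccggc
Foxp1 start 3: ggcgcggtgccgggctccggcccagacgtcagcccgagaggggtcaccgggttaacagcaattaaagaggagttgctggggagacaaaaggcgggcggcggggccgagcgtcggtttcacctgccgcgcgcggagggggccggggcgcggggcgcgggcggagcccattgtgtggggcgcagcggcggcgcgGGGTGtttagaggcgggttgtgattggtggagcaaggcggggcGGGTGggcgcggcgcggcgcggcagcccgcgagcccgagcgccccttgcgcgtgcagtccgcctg
Irx2: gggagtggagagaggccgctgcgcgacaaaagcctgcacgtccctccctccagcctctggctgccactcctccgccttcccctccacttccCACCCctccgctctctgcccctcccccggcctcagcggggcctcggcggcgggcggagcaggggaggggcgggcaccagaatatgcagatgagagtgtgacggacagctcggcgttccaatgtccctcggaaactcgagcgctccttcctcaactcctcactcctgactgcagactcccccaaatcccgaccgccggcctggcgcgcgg
Pou3f4: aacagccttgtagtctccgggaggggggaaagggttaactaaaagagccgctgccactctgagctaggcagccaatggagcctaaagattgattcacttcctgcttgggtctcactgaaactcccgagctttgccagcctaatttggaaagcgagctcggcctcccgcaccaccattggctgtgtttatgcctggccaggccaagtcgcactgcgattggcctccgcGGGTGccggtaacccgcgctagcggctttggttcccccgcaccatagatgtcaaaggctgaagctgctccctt

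The Foxp1 windows held 3, 0 and 2 copies of CACCC, those of Irx2 and Pou3f4 held 1 each, and the 2 windows of Etv1 held 2 and 0. The table had windows for 4 of the 6 members, and 5 of their 7 windows held the word at least once. So did 57.5% of all 32851 promoter windows of this length. The word was present in Foxp1 and in the 3 members with a window that did not pass, and a match is not a binding site.

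Between batches, 5 of the 6 factors differed, 3 higher and 2 lower in batch 2, where 32.7% of all tested genes differed at an adjusted p under 0.05. In a fit of the 10387 genes with a mean of at least 5 CPM, 4063 differed, the same 5 factors among them. The differences of the 6 factors were small. Irx1 was higher in batch 2, with 201.0 to 213.0 CPM against 183.2 to 190.3 CPM in batch 1 and no overlap (log2 fold change 0.13, SE 0.028, edgeR adjusted p = 0.00101). Pou3f4 was lower, with 212.6 to 220.5 CPM against 234.5 to 246.1 CPM, again without overlap (-0.16, SE 0.028, edgeR adjusted p = 0.000212). Foxp2 differed most, at 11.1 to 12.7 CPM against 13.1 to 15.1 CPM (-0.26, SE 0.053, edgeR adjusted p = 0.000575).

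Foxp1 was higher in batch 2 by 0.11 on the log2 scale (SE 0.031, edgeR adjusted p = 0.0128), opposite to Foxp2, and its batches overlapped. Etv1 was higher by 0.090 (SE 0.030, edgeR adjusted p = 0.0251). Without scramble replicate 2 or Klf4 siRNA replicate 3, Foxp1 had an adjusted p of 0.106 or 0.0503, and Etv1 missed the threshold in 5 of 8 fits with a library removed (without scramble replicate 1, 2 or 3 or Klf4 siRNA replicate 2 or 3), with an adjusted p of up to 0.137. With library size alone as the scaling, neither passed, at 0.0685 for Foxp1 (adjusted p = 0.0892) and 0.0526 for Etv1 (adjusted p = 0.202). For Irx2 the log2 fold change was 0.051 with a 95% interval from -0.0091 to 0.11 (edgeR adjusted p = 0.195).

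These differences stood beside a 6.97-fold higher Gcg level in batch 2 (log2 fold change 2.80, SE 0.042). Gcg had 1065 to 1257 CPM in batch 1 and 7640 to 8913 CPM in batch 2, whereas the largest difference among the 6 factors, that of Foxp2, was a ratio of 0.832. Among the weakly expressed relatives, Irx5, Irx6 and Etv4 differed. Irx5 had 3.15 to 3.94 CPM in batch 1 and 2.11 to 2.26 CPM in batch 2 (-0.71, SE 0.10, edgeR adjusted p = 1.44e-05), and Irx6 had 1.77 to 2.45 CPM against 0.624 to 0.812 CPM (-1.57, SE 0.16, edgeR adjusted p = 1.3e-07). Etv4 was also lower in batch 2 (-0.91, edgeR adjusted p = 0.00183), so 3 of the 7 tested relatives were lower and 0 higher. The duct cell markers summed to 6.60 to 8.37 CPM in batch 1 and 10.2 to 13.9 CPM in batch 2, with Cftr at 0, and the beta cell markers to 193 to 226 and 256 to 295 CPM; their part in the batch differences was not tested.

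**Figure D4:**
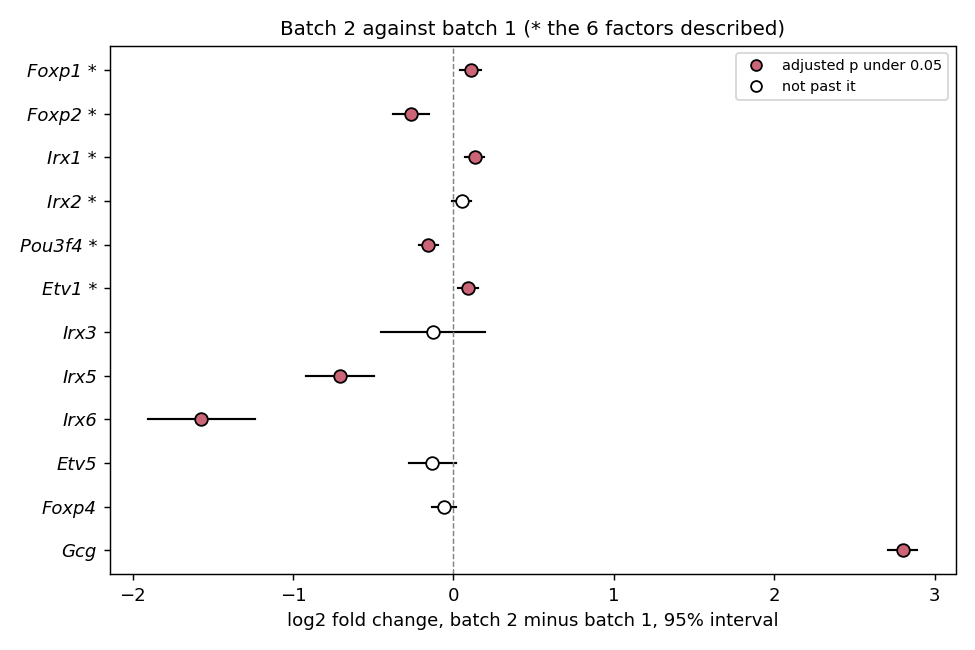
Log2 fold change of batch 2 against batch 1 with its 95% interval (horizontal axis) for the 6 factors (asterisks), their relatives with at least 1 CPM and Gcg, filled where the edgeR adjusted p was under 0.05. The 6 factors lie between -0.26 and 0.13, Irx6 is at -1.57 and Gcg at 2.80.

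Ratios within a library do not depend on scaling between libraries. The ratio of Foxp1 to Foxp2 counts was 11.7 to 13.1 in the 5 libraries of batch 1 and 15.7 to 16.1 in the 3 of batch 2. That of Irx1 to Irx2, neighbours on chromosome 13, was 0.740 to 0.769 and 0.786 to 0.816. Both ratios were chosen after the levels were seen, so they restate the batch differences above and are given as a description, without a p-value.

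The change after Klf4 siRNA was also compared between batches. A term for a treatment effect that differs by batch was called for 0 of the 6 factors with edgeR (0% of all tested genes), with 0 of the 6 at an unadjusted p under 0.05 and 0 called with DESeq2 or limma-voom. It was -0.032 for Foxp1 (95% interval -0.17 to 0.11) and 0.0043 for Foxp2 (-0.23 to 0.24), and batch 2 held a single Klf4 siRNA library, so that differences of this size between batches could not be resolved.

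The genes with the most similar pattern across libraries were listed for each factor, as Pearson's r over 8 libraries after removal of each batch's mean, among 12722 genes of at least 1 CPM. These are maxima over many genes and few libraries, the treatment difference is part of the pattern matched, and they are given as a description. Foxp2 was most like Pkp4, a junction plaque protein, and Prep, prolyl endopeptidase (r = 0.997 for each). Without removal of the batch means, r was -0.0358 for Pkp4 and -0.00323 for Prep, so the likeness to Foxp2 was within batches and not across all 8 libraries. Foxp1 was most like Cep170b (r = 0.986, and 0.992 without the removal) and E130309D02Rik (0.973 and 0.676). The closest genes were Ccdc96 (r = 0.984) and Hdgfl2 (0.958) for Irx1, and Zfp523 (0.985) and Cbx3-ps6 (0.953) for Irx2. They were Ccdc173 (0.965) and Dusp23 (0.961) for Pou3f4, and Hfe (0.981) and Zfp141 (0.971) for Etv1. Without the removal, r over these 8 genes ran from -0.563 for Dusp23 to 0.991 for Hfe. No gene was among the closest of more than 1 factor.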

How the data were processed

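The deposited file holds whole-number counts per gene for 8 libraries, not normalized; per the submitters' processing notes, FastQC, STAR, featureCounts, DESeq2 and the build mm10 were used, and the file's name mentions cutadapt trimming. Use of strand was not given in the sources used here. All 55536 identifiers and symbols matched GENCODE M21 (GRCm38), 0 rows lacked a gene and 0 columns were unmapped. The 6 members and the gene lists were chosen with earlier results of these data known; some listed genes are not reported here and were left out of the counts of their lists, though not of the fit.

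Totals were 45954151 to 64185987 counts. With edgeR 4.0.16 in R 4.3.3, genes were kept by filterByExpr (16333), scaled by TMM (factors 0.964 to 1.02) and fitted by robust quasi-likelihood with batch and treatment, leaving 5 residual degrees of freedom. Tests were two-sided, with Benjamini-Hochberg adjustment over all tested genes and a threshold of 0.05. The SE is the log2 change over the root of F. The F tests and intervals use each gene's total degrees of freedom, which add to the residual ones a number estimated from all genes. Changes within a batch come from log2 CPM with a prior count of 2. Genes named were the 6 members, Klf4, Gcg, listed relatives of at least 1 CPM and listed factors past the threshold. Also named were genes whose annotation overlaps a member and the 2 genes closest in pattern to each member. Foxp3, Etv4, Nkx6-1, G6pc2, Mafa, Gc, Cela1, Col1a2 and the listed genes at 0 were added after their values were seen. Alternatives included DESeq2 1.42.0 and limma 3.58.1.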

Additional observations from a re-analysis of the deposited data

Results flagged for a closer look

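In 12 groups of 4 libraries (6 factors, 2 treatments), 2 had a library far from the others. For values from a single population, chance gives about 1 in 20 groups. Every group here mixed the 2 batches, so that rate does not strictly apply. Irx2 in scramble libraries was 262 CPM in replicate 4 against 248 to 249 CPM in the others, a gap of 0.922 of the range. Foxp2 in Klf4 siRNA libraries was 11.1 CPM in replicate 3, the only one of batch 2, against 13.1 to 13.4 CPM in the others, a gap of 0.876 of the range. The controls of batch 2 were also lower for Foxp2 than those of batch 1.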

How the results depend on the processing

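The number of factors past the threshold for Klf4 siRNA, 2 in the reported fit, was 0 without the batch term, 0 in batch 1 alone and 1 (Foxp1, at -0.144) with replicate number as a block instead of batch, where Foxp2 had -0.111 (adjusted p = 0.320). It was 0 to 2 when a library was left out. It was 2 with DESeq2 size factors, library size alone, the DESeq2 Wald test, limma-voom and both other filters. Foxp1 and Foxp2 had a negative log2 fold change in all 17 other settings. Pou3f4 changed sign, to 0.031 without the batch term, 0.00693 in batch 1 alone, 0.0301 with the replicate block, and up to 0.00951 when a library was left out. Etv1 changed sign, to -0.018 without the batch term, -0.0179 with the replicate block, and down to -0.0107 when a library was left out (its lowest to highest values were -0.0107 to 0.0162, and those of Pou3f4 -0.0182 to 0.00951). The treatments were unevenly split over the batches, and the libraries of replicate 4 lay in different batches. The fits without the batch term and with the replicate block thus took up part of the batch difference. What part this had in each change of sign was not tested.

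The number of factors that differed between batches, 5, was 3 with library size alone (without Foxp1 and Etv1) and 3 to 5 when a library was left out. That of the interaction was 0 in every fit run, and without Klf4 siRNA replicate 3 it could not be fitted. With the replicate block, the adjusted p was 0.0622 for Foxp4, 0.104 for Rfx6 and 0.552 for Gcg (log2 fold change -0.817). Over all genes, 409 passed for Klf4 siRNA without the batch term, 1232 in batch 1 alone and 1220 with the replicate block, against 1909 as reported, and the lowest count with a library left out was 934. Deviations of same-numbered libraries correlated at 0.768, 0.665, 0.885 and -0.509 for replicates 1 to 4. Libraries 1, 2 and 3 of both treatments share a batch with their number and libraries 4 do not, so pairing by number and by batch cannot be told apart in these values; no label says that a number marks a shared culture, and the numbers were not used as pairs.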
